A study of Mus musculus with 8 samples.

Results

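A set of 10 genes used to identify astrocytes in brain tissue, or to recognise their reactive state, was followed in RNA sequencing of the mouse cortex: Gfap, Vim, Aqp4, Slc4a4, Gja1, Gjb6, Aldh1l1, S100b, Fgfr3 and Sox9. The genes were chosen by name, with earlier results of these data known. They were found through the gene symbols that accompany the deposited table, and all 10 had a row among the 28662 transcripts. The bigenic mice carried a Camk2a-tTA transgene together with tetO-ΔNLS-hTDP-43, a human TDP-43 with a defective nuclear localization signal, on a C57BL/6 background, and the nontransgenic littermates carried neither. All mice had received doxycycline, which keeps the transgene off, until it was withdrawn at 28 days of age, and poly(A)+ RNA was taken from the right cortex after 10 days off doxycycline in 4 bigenic and 4 nontransgenic mice. The Camk2a promoter is active in forebrain neurons, so the transgene is placed in neurons and not in astrocytes, and whole cortex was sequenced without sorting of cells.

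Astrocytes are the glial cells that take up glutamate and potassium around synapses, exchange ions and metabolites through a gap junction network, and wrap the brain's blood vessels with endfeet that are rich in water channels. After injury or in neurodegeneration they can become reactive, a state classically recognised by more of the intermediate filament proteins GFAP and vimentin. In the healthy cortex Gfap is low in most astrocytes of the grey matter, where Aldh1l1, Aqp4 and the connexin genes mark the cells better. Of the 10 genes, Gfap and Vim encode filaments, Aqp4 and Slc4a4 move water and bicarbonate, Gja1 and Gjb6 form gap junctions, Aldh1l1 is a folate enzyme, S100b binds calcium, and Fgfr3 and Sox9 are a growth factor receptor and a transcription factor of the lineage.

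Of the 10 genes, 3 (Aqp4, Gja1 and Aldh1l1) fell in the bigenic mice and 0 rose, while the level of Gfap differed by less than the spread between mice. Values are the deposited normalized counts, which the authors had scaled per mouse, and each gene was called at a Benjamini-Hochberg adjusted p below 0.05 with limma on log2(normalized count + 1). Of all 10588 genes tested, 35.9% were called, 15.4% as lower and 20.5% as higher, against 3 of 10 lower here. The counts of genes called in the lists below stand beside these same shares. Since the 10 genes and the lists were chosen with earlier results of these data known, comparison with all genes is a description and not a test. The median log2 fold change of the 10 genes was -0.25 and 8 of the 10 lay below 0, whereas the median over all genes tested was 0.03 with 46.7% below 0. In 2 of the 10 genes, Gja1 and Aldh1l1, every bigenic mouse lay below every nontransgenic mouse, an arrangement found in 16.7% of all genes, and in 0 of the 10 did every bigenic mouse lie above every nontransgenic mouse, against 22.3% of all genes (39.0% in either direction). Every one of the 10 reached 10 RPM (reads per M of the column total) in every mouse, with values between 552 and 7008 normalized counts, so the filter on low values removed none. In RNA from whole cortex, fewer astrocytes and less RNA per astrocyte cannot be told apart.

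The mice are numbered from 1 to 4 in the order of the table's columns, since those columns carry a group but no replicate number. About 10.6 M to 31.9 M reads per bigenic library and 20.4 M to 29.0 M per nontransgenic library lay on genes, as estimated from the steps that the scaling left in the values. At these depths 3 reads are worth between 1.94 and 6.20 normalized counts, far under every value of the 10 genes, and these limits cover counting error only. Bigenic mouse 2 had the shallowest library and stood apart from the other 3 bigenic mice on both leading principal components of all genes tested. On the first (58.9% of the variance), which separated the groups, it was at -46.0 against -15.1 to -12.8 in the other bigenic mice and 14.0 to 26.6 in the nontransgenic mice, and on the second (19.5%) it was at -22.3 against 15.05 to 15.87 in the other bigenic mice. The transcript of the transgene, listed without a mouse gene symbol, had 29375 to 41550 normalized counts with the bigenic label and 5 to 80 with the nontransgenic label. Nothing in the sources used here says that 2 columns share an animal, and the p-values measure the spread between these 8 samples.

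**Figure D1:**
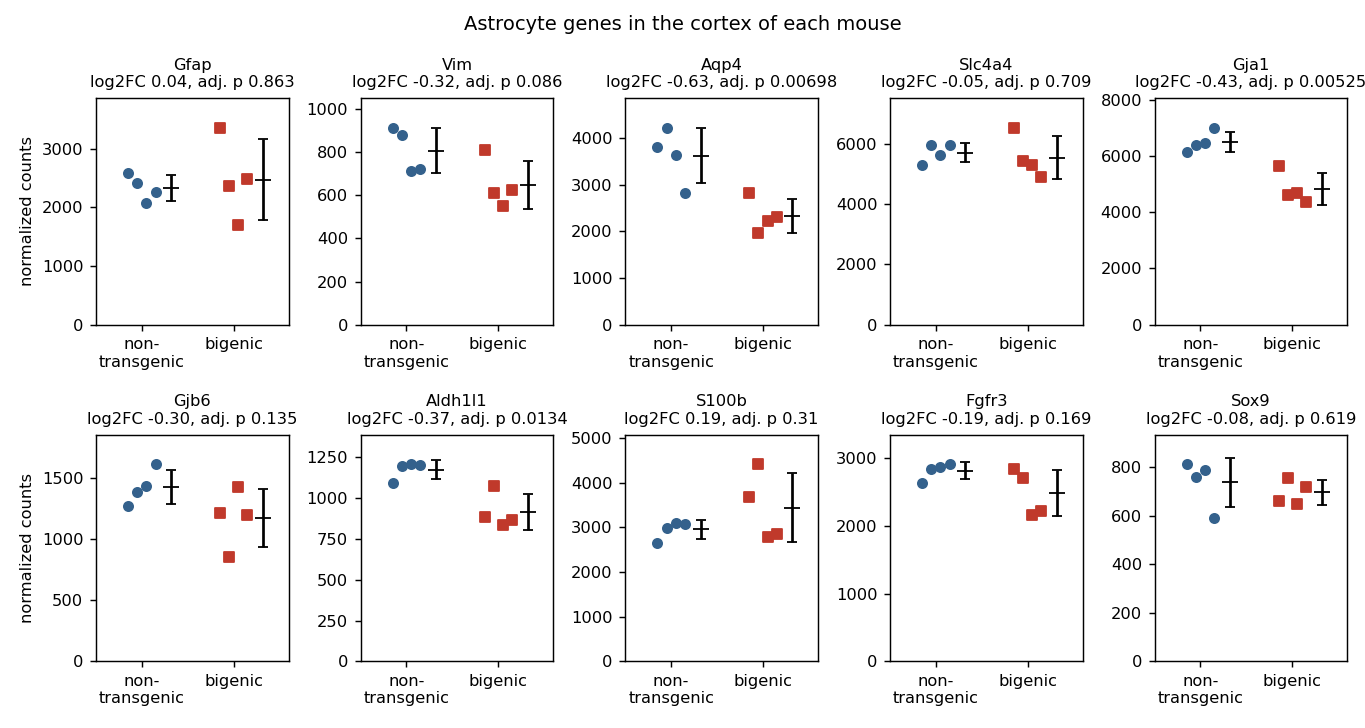
Normalized counts of each of the 10 genes (y axis, from 0) in the 4 nontransgenic mice (blue circles) and the 4 bigenic mice (red squares), with the mean and SD of each group in black and the limma log2 fold change and adjusted p above each panel. The groups are apart for Gja1 and Aldh1l1 and meet at a single value for Aqp4, while the bigenic mice scatter from 1692 to 3360 for Gfap.

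Gfap encodes the main intermediate filament protein of mature astrocytes and is the most used marker of reactivity. It had 3360, 2356, 1692 and 2477 normalized counts in bigenic mice 1 to 4, and 2593, 2414, 2076 and 2262 in nontransgenic mice 1 to 4. The highest and the lowest of all 8 values were both bigenic, and the nontransgenic mice lay between them. The means were 2471 ± 686 (SD, n = 4) and 2336 ± 220 (SD, n = 4), and the log2 fold change was 0.04 (SE 0.18, 95% confidence interval -0.35 to 0.44, limma adjusted p = 0.863). The interval therefore still holds a fall to 0.785 of the nontransgenic level and a rise to 1.35 of it. The coefficient of variation was 27.7% in the bigenic mice and 9.42% in the nontransgenic mice. The sign of the difference rested on single mice, since the log2 fold change was -0.12 without bigenic mouse 1 and 0.21 without bigenic mouse 3. The Gfap transcript (uc007lsw.2) lies on chr11:102748650-102762226 of mm9, minus strand, and 93.9% of the 50-base windows in its exons occur once in that genome, so a small part of its reads could not have been kept as unique.

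Vim encodes vimentin, a filament protein of immature and reactive astrocytes that endothelial cells and fibroblasts also make. It had 810, 610, 552 and 623 normalized counts in bigenic mice 1 to 4, and 914, 881, 712 and 722 in nontransgenic mice 1 to 4. Of the bigenic mice, 3 lay below all nontransgenic mice, and bigenic mouse 1 lay among them. The means of 649 ± 112 and 807 ± 105 (SD, n = 4 each) gave a log2 fold change of -0.32 (SE 0.13, interval -0.62 to -0.02, limma adjusted p = 0.086), which missed the threshold. Without bigenic mouse 1 it was called, at -0.43 with an adjusted p of 0.0218. Vim (uc008ikb.2) lies on chr2:13495554-13504453, plus strand.

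Of 7 other genes of intermediate filaments and their linkers that were tested, 3 were called higher and 0 lower (2 lower without bigenic mouse 2), and the median log2 fold change was 0.41. The 3 were the linker genes Plec (plectin) and Dst (dystonin) and the nuclear lamin gene Lmnb1, none of which is restricted to astrocytes. Plec rose from 5866 ± 747 to 14370 ± 4308 normalized counts (log2 fold change 1.26, adjusted p = 0.000701) and Dst from 24397 ± 2142 to 43496 ± 5733 (0.83, adjusted p = 0.000326), while Lmnb1 rose from 223 ± 21.8 to 295.5 ± 22.6 (0.41, adjusted p = 0.0183). The cytoplasmic filament genes of astrocytes on this list, Nes (nestin) and Synm (synemin), were singled out after their values were seen and had log2 fold changes of -0.23 and -0.25 (adjusted p = 0.444 and 0.104, limma).

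Aqp4, which encodes the water channel of astrocyte endfeet, showed the largest difference of the 10 genes. It had 2820, 1975, 2212 and 2316 normalized counts in bigenic mice 1 to 4, and 3797, 4225, 3634 and 2819 in nontransgenic mice 1 to 4. The groups met at a single point, because bigenic mouse 1 exceeded nontransgenic mouse 4 by 1 normalized count, and all other bigenic mice lay below all nontransgenic mice. The level fell from 3619 ± 589 to 2331 ± 356 (SD, n = 4 each), or to 0.646 of the nontransgenic level, with a log2 fold change of -0.63 (SE 0.14, interval -0.94 to -0.32, limma adjusted p = 0.00698). Without the shallowest bigenic library it was -0.56 (adjusted p = 0.00508). Aqp4 (uc008eds.2) lies on chr18:15547903-15562193 of mm9, minus strand.

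Aquaporin-4 is held at the endfoot membrane by the dystrophin-associated complex. Among 14 genes tested of that complex and of the endfoot membrane and basal lamina, 3 were called lower and 0 higher, and the median was -0.10 on the log2 scale. Without bigenic mouse 2, 5 were called lower. The 3 were Hepacam, an adhesion molecule that partners with Mlc1 (log2 fold change -0.39, adjusted p = 0.00995), Mlc1 itself, a membrane protein of perivascular astrocyte processes (-0.30, adjusted p = 0.0169), and Dtna, the α-dystrobrevin gene (-0.32, adjusted p = 0.0212). In each of these 3 genes the groups did not overlap. The genes of dystrophin and dystroglycan were singled out after their values were seen, and were not called: Dmd was at 2777.5 ± 137 against 2601.5 ± 86.6 normalized counts (adjusted p = 0.309) and Dag1 at 1514 ± 57.7 against 1694 ± 66.5 (adjusted p = 0.0904). The groups of Dag1 did not overlap either. In 4 of the 14 genes every bigenic mouse thus lay below every nontransgenic mouse, beside 16.7% of all genes tested. Kcnj10, which encodes the potassium channel Kir4.1 of the same endfeet, was at 7580 ± 1164 in bigenic against 6886 ± 1002 in nontransgenic mice (log2 fold change 0.14, adjusted p = 0.463).

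Slc4a4 encodes a sodium-bicarbonate cotransporter by which astrocytes regulate pH. It had 6539, 5441, 5284 and 4904 normalized counts in bigenic mice 1 to 4, and 5304, 5966, 5621 and 5944 in nontransgenic mice 1 to 4. Bigenic mouse 1 was above all other mice and bigenic mice 3 and 4 were below all nontransgenic mice. The means of 5542 ± 702 and 5709 ± 313 differed by a log2 fold change of -0.05 (SE 0.10, interval -0.26 to 0.16, limma adjusted p = 0.709). The gene (uc008yaj.2) lies on chr5:89315843-89668678, plus strand. Among 12 other bicarbonate transporter and carbonic anhydrase genes tested, 2 were called higher and 3 lower (20.5% and 15.4% of all genes tested), with a median of 0.01. Car2, a cytosolic carbonic anhydrase of glia, fell from 2790 ± 355 to 1876 ± 87.1 (log2 fold change -0.56, adjusted p = 0.0021), and Slc4a7, another sodium-bicarbonate cotransporter, rose from 971.5 ± 86.0 to 1410 ± 123 (0.54, adjusted p = 0.00214). Car7 was also called higher (0.41, adjusted p = 0.0125) and Car8, a relative of the carbonic anhydrases without their activity, lower (-0.52, adjusted p = 0.0493), and the count of genes called lower was 1 without bigenic mouse 4 or without any of nontransgenic mice 1, 2 and 3. Car7 reached 10 RPM in bigenic mice only, so the filter itself favoured its call.

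Gja1 encodes connexin 43, the main gap junction protein of astrocytes, and Gjb6 encodes connexin 30, which joins it there in the grey matter. Gja1 had 5645, 4601, 4694 and 4376 normalized counts in bigenic mice 1 to 4, and 6136, 6401, 6449 and 7008 in nontransgenic mice 1 to 4. The groups did not overlap. The level fell from 6499 ± 366 to 4829 ± 560 (SD, n = 4 each), or to 0.740 of the nontransgenic level, and the log2 fold change was -0.43 (SE 0.09, interval -0.64 to -0.23, limma adjusted p = 0.00525). Without the shallowest bigenic library it was -0.41 (adjusted p = 0.00295). The gene (uc007fcd.2) lies on chr10:56097106-56110225, plus strand.

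Gjb6 had 1212, 852, 1429 and 1198 normalized counts in bigenic mice 1 to 4, and 1273, 1388, 1430 and 1612 in nontransgenic mice 1 to 4. Of the bigenic mice, 3 lay below all nontransgenic mice, whereas bigenic mouse 3 lay among them. The means of 1173 ± 239 and 1426 ± 141 gave a log2 fold change of -0.30 (SE 0.15, interval -0.63 to 0.03, limma adjusted p = 0.135). Bigenic mouse 2, the shallowest library, had the lowest Gjb6 value, and without it the log2 fold change was -0.16 (limma adjusted p = 0.191). The interval of Gjb6 over all mice covers the estimate for Gja1, so the 2 connexins were not shown to differ in their change. Gjb6 (uc007ucy.1) lies on chr14:57742140-57752448, minus strand. Of 7 other connexin, pannexin and junction scaffold genes tested, 1 was called and it was lower: Panx1, which encodes a channel protein that forms no gap junctions in most cells, fell from 375.5 ± 17.3 to 193 ± 29.5 normalized counts (log2 fold change -0.97, adjusted p = 0.000463). The median of the 7 was -0.10, and 2 were called lower without nontransgenic mouse 3 or 4.

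Aldh1l1 encodes 10-formyltetrahydrofolate dehydrogenase, a cytosolic folate enzyme that is among the most general markers of astrocytes. It had 884, 1077, 836 and 867 normalized counts in bigenic mice 1 to 4, and 1092, 1198, 1208 and 1204 in nontransgenic mice 1 to 4. The groups did not overlap, although the highest bigenic mouse (the shallowest library) came within 15 normalized counts of the lowest nontransgenic mouse. The level fell from 1176 ± 55.8 to 916 ± 109 (SD, n = 4 each), or to 0.776 of the nontransgenic level, and the log2 fold change was -0.37 (SE 0.09, interval -0.57 to -0.16, limma adjusted p = 0.0134). Without the shallowest bigenic library it was -0.45 (adjusted p = 0.000302). Aldh1l1 (uc009cxm.1) lies on chr6:90436421-90550197, plus strand, and 499 bases of its exons overlap Gm15756 on the opposite strand. No source says that strand was used in counting, so reads from that overlap cannot be assigned to either gene. Among the other 11 folate one-carbon genes tested, 4 were called higher and 1 lower (20.5% and 15.4% of all genes tested), and their median was 0.23 on the log2 scale. Without nontransgenic mouse 3 the counts were 2 higher and 0 lower. Those higher were Shmt2, the mitochondrial serine hydroxymethyltransferase (0.87, adjusted p = 0.000297), Mthfd1 (0.26, adjusted p = 0.0233), which makes the formyl folate that ALDH1L1 consumes, and Atic and Gart (0.54 and 0.39, adjusted p = 0.000491 and 0.0161), which use it to build purines.

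**Figure D2:**
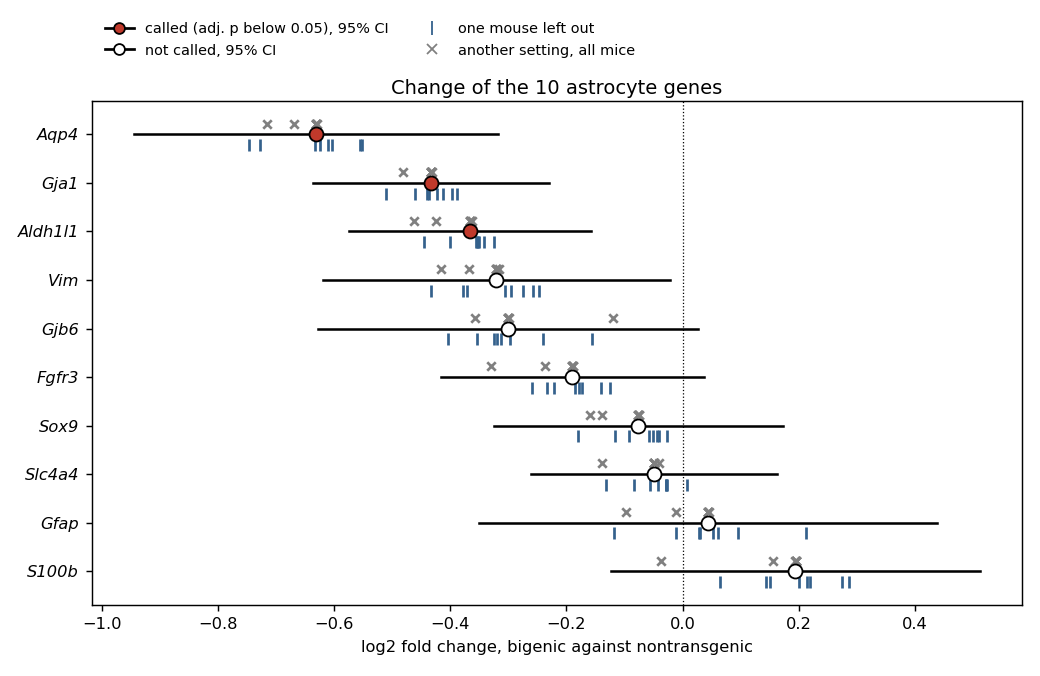
Log2 fold change of bigenic against nontransgenic mice (x axis) for each of the 10 genes, ordered by size, with the 95% confidence interval as a line, filled where called. Blue ticks are the fits with a single mouse left out and grey crosses the fits with another setting and all mice. All ticks and crosses of Aqp4, Gja1 and Aldh1l1 stay below 0, while those of Gfap lie on both sides, from -0.12 to 0.21.

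To show the start of the genes whose groups were apart, the 250 bases upstream of the annotated start are given for Gja1 and Aldh1l1, beside Gfap and Vim, which were not called. The sequences are RefSeq's on build GRCm38.p6, a later build than mm9, and are written 5′ to 3′ on the gene's strand. Capitals mark matches on either strand to the letters TTGGC (an NFI motif), CCAAT (the box of that name), ACAAT (a SOX motif), TTCNNNGAA (a STAT motif), TGANTCA (an AP-1 motif) and TATAAA (the core promoter motif known as the TATA box). The NFI and CCAAT letters can share bases, as in the run ATTGGC.
Gja1, chr10:56377050-56377299, plus strand: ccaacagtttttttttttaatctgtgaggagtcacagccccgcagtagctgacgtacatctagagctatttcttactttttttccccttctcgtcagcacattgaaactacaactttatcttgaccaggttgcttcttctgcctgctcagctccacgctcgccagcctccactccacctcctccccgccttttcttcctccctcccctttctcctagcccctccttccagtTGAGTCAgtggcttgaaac
Aldh1l1, chr6:90550543-90550792, plus strand: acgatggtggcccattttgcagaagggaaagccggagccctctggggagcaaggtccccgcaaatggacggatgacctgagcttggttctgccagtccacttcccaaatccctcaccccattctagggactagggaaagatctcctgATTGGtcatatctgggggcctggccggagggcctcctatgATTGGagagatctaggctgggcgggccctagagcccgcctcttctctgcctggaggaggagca
Gfap, chr11:102897201-102897450, minus strand: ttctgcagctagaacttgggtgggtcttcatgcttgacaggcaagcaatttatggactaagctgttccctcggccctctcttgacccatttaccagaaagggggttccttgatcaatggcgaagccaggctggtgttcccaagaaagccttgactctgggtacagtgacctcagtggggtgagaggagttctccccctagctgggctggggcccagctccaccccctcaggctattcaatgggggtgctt
Vim, chr2:13574061-13574310, plus strand: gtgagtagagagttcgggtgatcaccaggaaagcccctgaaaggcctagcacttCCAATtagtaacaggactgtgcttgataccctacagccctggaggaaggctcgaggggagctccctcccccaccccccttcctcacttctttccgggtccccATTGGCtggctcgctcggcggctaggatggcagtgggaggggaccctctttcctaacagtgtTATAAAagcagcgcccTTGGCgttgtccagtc

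The Gja1 window held 1 AP-1 match, TGAGTCA, whose first base lies 19 bases upstream of the start, and AP-1 letters are in 6.75% of all 32851 windows of this length. The Aldh1l1 window held 2 CCAAT boxes, read on the minus strand, 103 and 63 bases upstream, and 33.8% of all windows hold at least 1. The Gfap window held none of the 6 motifs. The Vim window held a TATA box 32 bases upstream, as do 12.4% of all windows, with 2 CCAAT boxes and 2 NFI motifs, which are in 33.8% and 41.5% of all windows. SOX letters are in 27.7% and STAT letters in 7.02% of all windows, and neither was in these 4. Windows were found for 8 of the 10 genes. The matches describe letters only, and Gja1 and Aldh1l1, whose groups were both apart, had no motif of the 6 in common in this stretch.

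S100b encodes a calcium-binding protein that astrocytes secrete and that mature oligodendrocytes also contain. It had 3690, 4413, 2784 and 2857 normalized counts in bigenic mice 1 to 4, and 2653, 2986, 3108 and 3071 in nontransgenic mice 1 to 4. Bigenic mice 1 and 2, the shallowest libraries, lay above all other mice, and bigenic mice 3 and 4 lay among the nontransgenic mice. The means of 3436 ± 770 and 2955 ± 207 gave a log2 fold change of 0.19 (SE 0.14, interval -0.12 to 0.51, limma adjusted p = 0.31). The oligodendrocyte markers Mobp and Mag were likewise highest in bigenic mice 1 and 2, at 5658 and 7313 normalized counts for Mobp and 2619 and 2792 for Mag, against 4157 and 4341 for Mobp and 1854 and 2005 for Mag in bigenic mice 3 and 4; their part in the S100b values was not tested. S100b (uc007fuc.2) lies on chr10:75716598-75723904, plus strand. Of 6 other S100 genes tested, 1 was called, S100a6 (log2 fold change 0.50, adjusted p = 0.0306), and the median was 0.15. S100a6 was not called without bigenic mouse 4, nontransgenic mouse 1 or nontransgenic mouse 4.

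Fgfr3 encodes a fibroblast growth factor receptor that marks the astrocyte lineage. It had 2838, 2697, 2150 and 2221 normalized counts in bigenic mice 1 to 4, and 2621, 2833, 2869 and 2904 in nontransgenic mice 1 to 4. Bigenic mice 3 and 4 lay below all others and bigenic mice 1 and 2 lay within the nontransgenic range. The means of 2477 ± 342 and 2807 ± 127 gave a log2 fold change of -0.19 (SE 0.10, interval -0.42 to 0.04, limma adjusted p = 0.169). Fgfr3 (uc012dut.1) lies on chr5:34064373-34079716, plus strand. Among 16 other genes tested of FGF receptors, ligands and response, 2 were called higher and 2 lower (20.5% and 15.4% of all genes tested). Their median was -0.11, and 5 were lower without bigenic mouse 2 and 4 higher without bigenic mouse 1. The receptor gene Fgfr2, which astrocytes and oligodendrocytes use, fell from 878 ± 94.8 to 646 ± 53.7 (log2 fold change -0.44, adjusted p = 0.00843) and the FGF-responsive transcription factor gene Etv1 from 778 ± 109 to 452 ± 123 (-0.82, adjusted p = 0.00932). The docking protein gene Frs2 (0.65, adjusted p = 0.000938) and the ligand gene Fgf9 (0.34, adjusted p = 0.00858) rose.

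Sox9 encodes a transcription factor that starts gliogenesis and stays on in adult astrocytes. It had 661, 757, 650 and 718 normalized counts in bigenic mice 1 to 4, and 813, 761, 789 and 591 in nontransgenic mice 1 to 4. The lowest and the highest values were both nontransgenic. The means of 697 ± 50.2 and 739 ± 101 gave a log2 fold change of -0.08 (SE 0.11, interval -0.32 to 0.17, limma adjusted p = 0.619). Sox9 (uc007med.2) lies on chr11:112643538-112649074, plus strand. Among 17 other transcription factor genes of astrocyte development that were tested, 6 were called lower and 2 higher (15.4% and 20.5% of all genes tested), with a median of -0.29. Those with the smallest adjusted p were Id4 (log2 fold change -0.80, adjusted p = 0.00477) and Id2 (-0.87, adjusted p = 0.00738), inhibitors of basic helix-loop-helix factors, Sox2 (-0.35, adjusted p = 0.00905), a factor of neural progenitors and astrocytes, and Nfib (0.32, adjusted p = 0.00735), a nuclear factor I gene that promotes gliogenesis and that rose.

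The 10 genes can be ordered by level only after division by length, for which the union of each gene's GENCODE exons was used. This union can hold exons that the authors did not count, so the order between genes is approximate. In the nontransgenic mice Gja1 led with 2093 ± 118 normalized counts per kb, followed by S100b with 1991 ± 140, and these levels did not differ beyond their spread. Aqp4 (681 ± 111), Gjb6 (628 ± 62.0), Gfap (554 ± 52.2) and Slc4a4 (528 ± 28.9) came next, each within the spread of its neighbour. Fgfr3 (408 ± 18.5) and Vim (346 ± 45.0) overlapped in their spread below them, and Aldh1l1 (261 ± 12.4) and Sox9 (179 ± 24.3) stood each apart at the end. In the bigenic mice S100b led with 2315 ± 519 per kb, ahead of Gja1 with 1555 ± 180. Aqp4 was the third in the nontransgenic order and the sixth in the bigenic order, at 439 ± 67.0 per kb, behind Gfap (586 ± 163), Gjb6 (517 ± 105) and Slc4a4 (512 ± 64.9), though all 4 overlapped in their spread with the next. The last 4 genes kept their order, with Fgfr3 at 360 ± 49.7, Vim at 278 ± 47.9, Aldh1l1 at 203 ± 24.2 and Sox9 at 168 ± 12.1.

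Single mice recurred at the ends of their group. Bigenic mouse 1 was the highest of its group for 6 of the 10 genes (Gfap, Aqp4, Gja1, Slc4a4, Fgfr3 and Vim), and bigenic mouse 3 was the lowest for 6 (Gfap, Aldh1l1, S100b, Fgfr3, Vim and Sox9). Among the nontransgenic mice, mouse 1 was the lowest for 6 of the 10, including Gja1, Gjb6 and Aldh1l1, and the highest for Gfap, Vim and Sox9. The coefficient of variation was larger in the bigenic than in the nontransgenic mice for 8 of the 10 genes, the exceptions being Aqp4 and Sox9, and this difference in spread was not tested. Summed over the 10 genes, bigenic mouse 1 had 28459 normalized counts, within the nontransgenic range of 27196 to 29053, and bigenic mice 2, 3 and 4 had 24779, 22283 and 22557, below it.

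Across 56 other astrocyte genes tested, 19 were called lower and 1 higher. Hepacam and Mlc1, counted above among the endfoot genes called lower, are also among these 19. Kcnj10 and Gjb2, which were not called, likewise stand on more than 1 list, so the counts of different lists are not separate observations. The number lower was 10 without nontransgenic mouse 2 and 12 without nontransgenic mouse 3, and 21 without the shallowest bigenic library. Their median log2 fold change was -0.28 and 47 of the 56 lay below 0, beside the median of 0.03 over all genes. The smallest adjusted p belonged to Dio2, the deiodinase that activates thyroid hormone in astrocytes, which had 2126, 2093, 2504 and 2128 normalized counts in bigenic mice 1 to 4, and 4655, 5566, 5975 and 5639 in nontransgenic mice 1 to 4. The groups of Dio2 were far apart, and the fall was -1.30 on the log2 scale (SE 0.10, limma adjusted p = 2.7e-05). Ednrb, an endothelin receptor of astrocytes (-0.59, adjusted p = 0.000832), Atp1b2, a sodium pump subunit (-0.39, adjusted p = 0.00137), and Mfge8, a secreted bridge for phagocytosis (-0.57, adjusted p = 0.00224), fell as well. The 1 gene called higher was Fam107a, singled out after its value was seen, which rose from 11389 ± 740 to 14248 ± 1774 (log2 fold change 0.32, adjusted p = 0.0337), a call lost without bigenic mouse 3 or 4 or without nontransgenic mouse 1, 2 or 3.

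Astrocytes clear glutamate from synapses and convert it to glutamine. Slc1a2, the main glutamate transporter, fell from 106790 ± 4189 to 90026 ± 9460 normalized counts (log2 fold change -0.25, adjusted p = 0.0389), and Glul, glutamine synthetase, from 24395 ± 1779 to 18760 ± 3376 (-0.40, adjusted p = 0.0401). Both calls lay close to the threshold and were lost in 10 and 8 of the 15 alternatives tried, each of which changed a single setting or left out a mouse. Slc1a3, the second glutamate transporter, was at 14143 ± 1829 against 16459 ± 820 and was not called (-0.23, adjusted p = 0.0879).

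**Figure D3:**
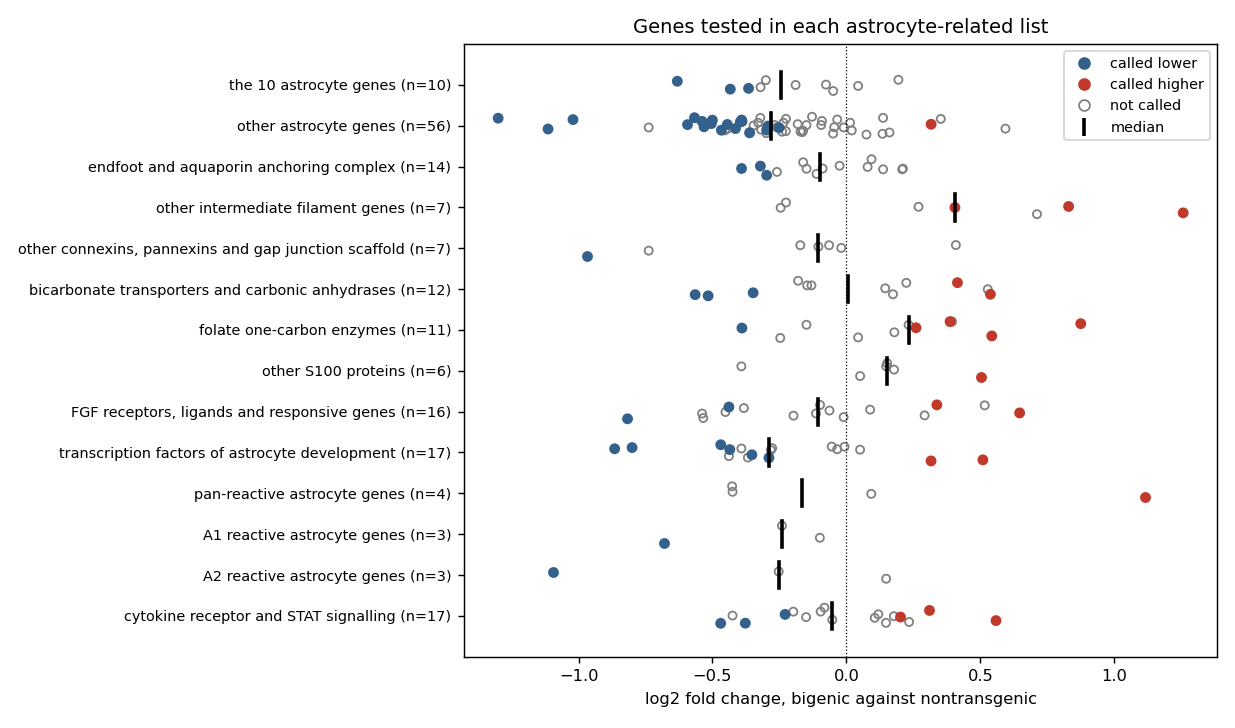
Log2 fold change of bigenic against nontransgenic mice (x axis) for every tested gene of each astrocyte-related list (rows, with the number tested), coloured by call, with the list's median as a black bar. The 10 astrocyte genes (median -0.25) and the other astrocyte genes (median -0.28) lie mostly left of 0, and the other intermediate filament genes (median 0.41) mostly right of it. Some lists share genes.

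Genes named for reactive astrocytes were few among those tested. Of 4 tested genes that rise in most reactive states, 1 was called higher: Serpina3n, a secreted serine protease inhibitor, had 362, 273, 481 and 511 normalized counts in bigenic mice 1 to 4, and 181, 178, 215 and 157 in nontransgenic mice 1 to 4. Every bigenic mouse was above every nontransgenic mouse, and the level rose from 183 ± 24.0 to 407 ± 110 (log2 fold change 1.12, SE 0.20, limma adjusted p = 0.00214). The rest of this list was not called: Cp (-0.43, limma adjusted p = 0.0655), Osmr (-0.43, 0.304) and S1pr3 (0.09, 0.652). The median of the 4 was -0.17, and 1 of 4 called higher stands beside 20.5% of all genes tested. Of 3 tested genes of each of the A1 and A2 sets, which were defined after inflammation and after ischaemia, 1 of each was called and both were lower, Amigo2 (-0.68, adjusted p = 0.00494) of the A1 set and Ptgs2 (-1.10, adjusted p = 0.000796), a cyclooxygenase gene that cortical neurons express with activity, of the A2 set. Lcn2, Cd44 and C3 had no row with a symbol and were not analysed here. All 10588 genes that passed the filter had a row in the list of symbols. Lcn2, Cd44 and C3 therefore lay below the filter or were listed there without these names. Of 17 tested genes of the cytokine receptor and STAT pathway, through which Gfap is induced, 3 were called higher and 3 lower. These counts lay near the shares of all genes tested (20.5% higher and 15.4% lower). The median was -0.05, and 1 was lower without bigenic mouse 1 or without nontransgenic mouse 1, 3 or 4. Stat3, the factor most tied to reactive Gfap expression, was at 1016 ± 58.2 against 944 ± 46.9 (log2 fold change 0.11, adjusted p = 0.3), whereas the receptor subunit gene Il6st (0.31, adjusted p = 0.00808) and Stat6 (0.56, adjusted p = 0.00498) rose, and Socs5, a suppressor of the pathway (-0.47, adjusted p = 0.0013), and the kinase gene Jak1 (-0.23, adjusted p = 0.0311) fell. Stat6 reached 10 RPM in bigenic mice only and Amigo2 in nontransgenic mice only, so the filter itself favoured both calls.

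Markers of other cell types were read beside the 10 genes, whose summed level in bigenic mice was 0.874 of the nontransgenic mean. Summed microglial markers were at 6743 to 9094 normalized counts in the bigenic and 9046 to 10692 in the nontransgenic mice, a ratio of 0.767, with 6 of 13 called lower (10 without bigenic mouse 1), among them Cx3cr1 (-0.56, adjusted p = 0.00156) and P2ry12 (-0.65, adjusted p = 0.00206). Summed endothelial and pericyte markers had a ratio of 0.873 with 1 of 12 called lower (Flt1, -0.26, adjusted p = 0.0404; 0 to 2 with a mouse left out), neuronal markers 0.877 with 6 of 15 called lower (2 to 7 with a mouse left out) and 2 higher (1 to 4), oligodendrocyte markers 0.959 with 1 of 17 called higher (0 to 2) and 0 lower (0 to 2), and meningeal markers 0.757 with 1 of 4 called lower (0 to 2). The oligodendrocyte gene called was Mobp (0.60, adjusted p = 0.0317), whose call was lost without bigenic mouse 1 or without nontransgenic mouse 1, 2 or 3, at adjusted p-values up to 0.0939. Among the neuronal markers the smallest adjusted p belonged to Thy1 (0.77, adjusted p = 3.47e-05) and Camk2a (-0.88, adjusted p = 0.000176). Each sum weighs its most abundant genes most. Camk2a alone fell from 46892 ± 2103 to 25620 ± 3541 normalized counts and Thy1 rose from 13654 ± 449 to 23269 ± 616. The median log2 fold change of the neuronal markers was -0.11. Choroid plexus markers, by contrast, summed to 15170 to 30508 against 7628 to 8928, a ratio of 2.86 with 5 of 7 called higher. Among them were Ttr, at 7741 to 18520 in the bigenic and 236 to 1023 in the nontransgenic mice, and F5 and Kl (2.71 and 2.25, adjusted p = 5.08e-05 and 7.87e-05). Ttr alone had a mean of 13603 of the bigenic mean sum of 23990, and 724 of the nontransgenic mean sum of 8390. Enpp2 and Igf2 were not called (limma adjusted p = 0.128 and 0.586). F5, Kl, Clic6 and Prlr, the last 2 named after their values were seen, reached 10 RPM in bigenic mice only. The filter itself therefore favoured their calls as higher, and the count of calls adds no support. Without bigenic mouse 1, F5, Clic6 and Prlr fell below the filter and were not tested, and the 2 called higher were Ttr and Kl. None of the markers was at 0 in any mouse, none of 10 ependymal markers was tested, and the part of any of these cells in the levels of the 10 genes was not tested.

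**Figure D4:**
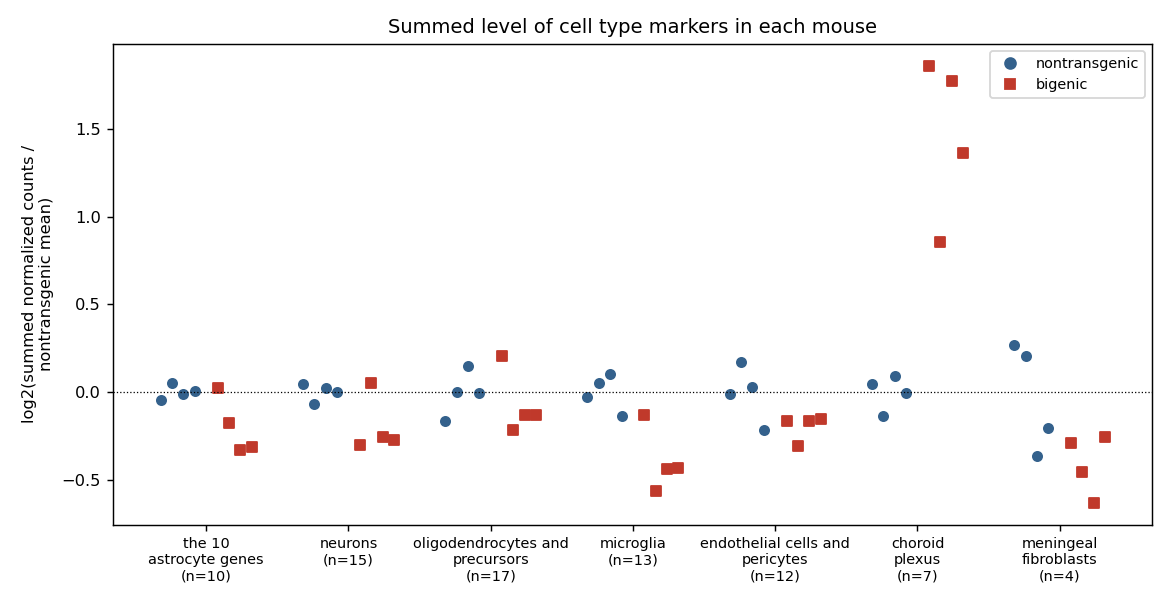
Summed normalized counts of each marker list in each mouse, as log2 of the ratio to the nontransgenic mean (y axis), for nontransgenic (blue circles) and bigenic mice (red squares), with the number of genes in each list. Bigenic mouse 1 lies at the nontransgenic level for the 10 astrocyte genes and the other 3 below it, the mean microglial sum lies at 0.767 of the nontransgenic mean, and the mean choroid plexus sum at 2.86 of it. The sums weigh abundant genes most, such as Ttr among the choroid plexus markers.

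The genes whose pattern over the 8 mice lay nearest to that of Gfap, by the root mean square distance of log2(normalized count + 1) centred on each gene's mean, were Csf1 (0.132), Vwf (0.149), Ccdc126 (0.150), Slc39a11 (0.158) and Fn1 (0.159), where the median over all genes was 0.345. None of these 5 was called. Nearest to Aqp4 were Ndp (0.0998), A930038C07Rik (0.102), Vrk3 (0.104), Prkar2b (0.111) and Htr1a (0.12), against a median of 0.426, and these had log2 fold changes between -0.51 and -0.77. The distances describe these 8 libraries, which share the group difference and the depth of each library, and carry no test.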

How the data were processed

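Poly(A)+ RNA of the right cortex was sequenced in 4 bigenic and 4 nontransgenic mice. The authors trimmed reads with cutadapt, mapped them to mm9 with Bowtie 0.12.7, kept unique reads, counted exons with bedtools and merged them into genes. The deposited table holds normalized counts, treated as a score because the authors scaled them per mouse and rounded them to whole numbers, and how is not given in the sources used here. A second deposited table, the authors' DESeq2 comparison with fold changes and p-values, was used for symbols only. Raw counts were not analysed, so a count test was not run. Genes with at least 10 RPM (reads per M of the column total) in at least 1 mouse (10588) were compared with limma 3.58.1 (lmFit, eBayes with trend) in R 4.3.3 on log2(value + 1), which understates changes of low genes, with Benjamini-Hochberg adjustment. On simulated data for 10588 genes, 179 of 200 genes that were doubled or halved were called, as were 14 unchanged genes. Such a 2-fold change is larger than that of any of the 10 members. Named genes are the 10 members, up to 4 called genes with the smallest adjusted p in each list, Slc1a2, Slc1a3, Glul, Kcnj10, Serpina3n, Stat3, Cd44, Lcn2 and C3, and 2 per marker list with Ttr. Members and lists were chosen with earlier results of these data known. Where a symbol had 2 rows, the one with the larger mean was used. Positions are from GENCODE on mm9. Python 3.11.15, numpy 2.4.6 and pandas 2.3.3 were used. Alternatives were pseudocounts of 0.1 and 10, no filter or a filter in every mouse, equal totals, quantile normalization, array weights and leaving out each mouse.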

Additional observations from a re-analysis of the deposited data

Results flagged for a closer look

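In each group of 4 mice, a highest or lowest value was marked where its gap to the nearest other mouse, divided by the group's range, passed Dixon's 95% critical value for 4 samples. This was the case in 6 of 126 groups over 63 named genes, and chance marks about 1 in 20. Among the 10 astrocyte genes it was met once, by Aldh1l1, whose lowest nontransgenic mouse had 1092 normalized counts where the others had 1198 to 1208. The other 5 were single mice in other genes. Dio2 was highest at 2504 in a bigenic mouse, against 2093 to 2128 in the others. Glul was lowest at 13718 in bigenic mouse 2, the shallowest library, against 20013 to 20746. Plec was highest at 6981 in a nontransgenic mouse, against 5433 to 5598. Stat6 was lowest at 223 in a bigenic mouse, against 274 to 280. Cx3cr1 was highest at 881 in a bigenic mouse, against 802 to 809.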

How the results depend on the processing

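Aqp4, Gja1 and Aldh1l1 were called lower under all 15 alternatives, with adjusted p-values (limma) up to 0.0255, 0.0187 and 0.0441 with each mouse left out. With array weights, which give less weight to libraries that deviate, 6455 genes and 5 of the 10 members were called (Vim at -0.42 and Fgfr3 at -0.33, adjusted p = 0.00199 and 0.000387). Leaving out each mouse gave 2654 to 4782 called genes and 3 to 4 members lower, 0 higher. Gfap changed sign to -0.01157 with quantile normalization and -0.09674 with array weights, and ranged from -0.12 to 0.21 with a mouse left out. S100b was -0.03771 with array weights, and Slc4a4 ranged from -0.13 to 0.006664 with a mouse left out. None of these 3 genes was called in any fit. Among the 56 other astrocyte genes, 10 were called lower without nontransgenic mouse 2, 12 without nontransgenic mouse 3 and 35 with array weights, against 19. Slc1a2 lost its call in 10 of 15 alternatives and Glul and Car8 in 8 of 15 each. With single mice left out, adjusted p rose to at most 0.0603 for Dtna (calls lost without nontransgenic mouse 1 or 4), 0.0577 for Mlc1 (bigenic 4, nontransgenic 2 or 3), 0.0788 for Mthfd1 (bigenic 4, nontransgenic 1 or 3), 0.0534 for Gart (nontransgenic 3), 0.0558 for Lmnb1 (nontransgenic 1), 0.0908 for Jak1 (5 of 8 mice) and 0.122 for Flt1 (6 of 8). Of the genes named, Panx1, Serpina3n, Amigo2, Car7, Shmt2, Stat6, Lmnb1, Kl, F5, Clic6 and Prlr were not tested where 10 RPM was required in every mouse. F5, Clic6 and Prlr were not tested without bigenic mouse 1 either. Some called genes passed the main filter through the mice of 1 group only, which favoured their calls. These were F5, Kl, Clic6, Prlr, Car7 and Stat6 through bigenic mice, and Amigo2 and the transcription factor gene Id1 through nontransgenic mice. No other alternative moved the main counts by more than 1.5 times. The cause of these shifts was not tested. No paired analysis was possible because the columns carry none of the replicate numbers of the labels. The 95% intervals of Gfap, S100b, Slc4a4, Gjb6, Fgfr3 and Sox9 hold changes of either sign.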
